A study of Bos taurus with 18 samples.

Results

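Positions of consistent intermediate methylation are CpG positions of the sperm genome at which about as many reads were methylated as unmethylated in most of the bulls examined. Here they comprised 32682 positions on the 29 autosomes, chosen by the deposited percent of methylated reads: the position was listed in 12 or more of 18 bulls, its mean over the bulls lay between 40% and 60%, and its SD between bulls was under 15 percentage points. They made up 1.75% of the 1870522 autosomal positions listed in 12 or more bulls, which are called comparable positions below, out of 39985997 positions listed in any bull. The label held in the sense that means and spread met these limits, which is what the choice fixed and is no result.

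Whole-genome bisulfite sequencing was applied to sperm DNA of 18 Holstein bulls, 1 library per bull. The bulls were labelled high or low for 5 traits. For GL, SCE, BDE and CCR the study's groups rest on predicted transmitting ability, the genetic merit passed on to progeny, and for SCR the basis of the label is not given in the sources used here. Gestation length (GL) had H03, H09, L03 and L05 as high and H02, H05, L01 and L07 as low bulls. Sire calving ease (SCE) had H01, H06 and L09 as low and H03, H07 and L02 as high bulls. Body depth (BDE) had H05, H09 and L02 as low and H02, L03 and L08 as high bulls. Cow conception rate (CCR) had H06, L08 and L09 as low and H08, H09 and L06 as high bulls, and sire conception rate (SCR) had L01, L02 and L03 as low and H01, H02 and H03 as high bulls. Bulls were shared between traits, so the 5 comparisons are not independent. H04 and L04 carried no trait group and entered no group comparison. The study describes the bulls as fertile and matched for age, and no treatment or allele is given in the labels. The bulls listed between 2858992 (H01) and 22048556 (H08) positions, each covered by at least 10 reads. Coverage was listed for the 6 SCR bulls only, from 10 to 100 reads per position, and the depth of the other 12 bulls is unknown. The highest listed value was 100 reads in each of the 6 bulls. Whether deeper positions were left out or capped is not known, so mean coverages below hold for listed values.

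Methylation at a CpG is written on the cytosines of both strands and is copied at cell division by a maintenance methyltransferase. A sperm cell is haploid, so each CpG strand of a cell is either methylated or not, and an intermediate percent describes a mixture across cells or across genomic copies that share an address on the reference. Mature mammalian sperm is known for a genome that is mostly highly methylated, with unmethylated stretches at many promoters and CpG islands. Imprinted regions, which are intermediate in somatic tissue because the parental copies differ, are reset in the male germ line to a single paternal state.

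Intermediate levels were uncommon among comparable positions. A mean over 80% was found at 68.7% of them, a mean under 20% at 16.4%, and a mean between 40% and 60% at 3.97%, or 74259 positions. Of these 74259, 44.0% met the limit on the SD. The median of the means over the members was 48.7%, with quartiles of 44.1% and 54.03%, and their median SD was 11.9 points. The other 41577 positions with a mean of 40% to 60% had a median SD of 19.7 points.

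The limits cut through a continuous range. The member with the largest SD, at chr16:55858346, had a mean of 53.9% and an SD of 14.9999 points, and the nearest position outside, at chr13:17700932, had a mean of 54.4% and an SD of 15.0001 points. In the bands just inside and just outside, 5654 members had an SD from 14 to under 15 and 5554 positions had an SD from 15 to under 16. The lowest member mean was 40.0001% at chr12:78643224, and the closest mean below the limit was 39.9988% at chr19:16708294. The highest member mean was 59.9988% at chr27:28748091, and the closest mean above was 60.0005% at chr2:63651517. The steadiest member, at chr8:74496587, had a mean of 50.6% and an SD of 2.97 points over 16 bulls.

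Members were listed in a median of 15 bulls, and the other comparable positions in 13. All 18 bulls listed 7549 members (23.1%), against 5.84% of the other comparable positions. At these 7549 members the mean level of a bull was lowest in L06 (42.0%), had a median of 48.3% and was highest in L03 (53.9%), with an SD between bulls of 2.89 points. H05 (45.6%), L05 (46.1%) and L04 (46.2%) followed L06, and H06 (53.6%) was next to L03. The order was shared by chromosomes: L06 was the lowest bull on 22 of the 29 autosomes, and H06 or L03 was the highest on 13 and 12. The bulls with listed coverage ranged from 47.6% to 53.9% and those without from 42.0% to 53.6%, with medians of 48.3% and 48.2%.

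**Figure D1:**
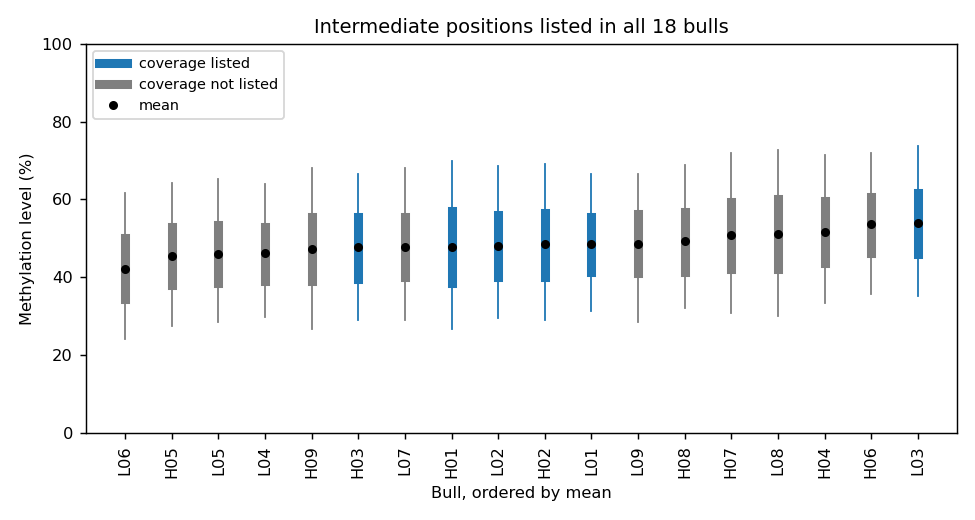
Methylation level in percent at the 7549 intermediate positions listed in all 18 bulls, 1 column per bull, ordered by its mean (black point). Thick bars span the 25th to 75th and thin lines the 5th to 95th percentile over positions, blue where coverage was listed and gray where it was not. The means run from 42.0% (L06) to 53.9% (L03), and every bull shows a wide range over positions.

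The bulls at the ends of this order also stood at an end at positions of low or high level that all bulls listed. L06 had the lowest level of the 18 bulls at the 68846 positions with a mean under 20% that all bulls listed (6.72%, against a median bull of 8.52%) and at the 12361 positions with a mean over 80% (89.5%, against 93.0%). H06 had the highest level at the former (10.6%) and L03 at the latter (94.5%). At comparable positions farther than 1000 bp from any member the order differed in part. There H01 was lowest (81.1%), followed by L06 (81.6%), and L03 had 84.1%. H08 was highest (86.0%), followed by H06 (85.5%). Each bull was averaged there over the positions it listed, and H01 listed the fewest. Setting each bull's mean to the same value lowered the median SD of a member only from 10.7 to 10.3 points. This SD is the quantity the choice limited and is given as a description.

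Within a bull, single members were far from uniform. In L01, 66.8% of the 7549 members lay between 40% and 60%, the highest share of any bull, and in L06 50.7% did, the lowest. The 5th and 95th percentiles over members were 31.4% and 66.7% in L01 and 24.0% and 61.5% in L06.

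A bull that the choice did not use can be read as a separate measurement. When the same limits were applied to 17 bulls, between 27408 and 30887 positions were chosen, and the left-out bull listed 18168 (H01) to 26513 (L06) of them. The median level in the left-out bull ran from 40% (L06) to 54.5% (H06). Between 93.5% (L06) and 97.6% (L01) of the positions lay from 20% to 80% in that bull, and between 44.9% (L06) and 60% (L01) lay from 40% to 60%. At positions with a 17-bull mean of 40% to 60% and an SD of 15 points or more, the share from 20% to 80% was 74.8% to 82.0%. Most chosen positions therefore kept a mixture of methylated and unmethylated reads in a bull that had no part in the choice. These values are a description and were not tested.

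The limit on the SD lay close to the error of counting reads. A position at 50% covered by 10 reads has a binomial SD of 15.8 points, above the limit of 15, whereas 25 reads give 10 points. The limit thus favoured deep positions. In the 6 bulls with listed coverage, the deviation of the left-out bull from the mean of the other 17 had an SD of 12.1 to 13.6 points. A counting value, made of counting error in that bull and the error of the other bulls' mean, was 11.1 to 12.5. The latter error was taken from the observed SD between those bulls. At positions with 30 or more reads in that bull, the SD was 8.64 to 9.69 points and the counting value 7.69 to 8.28. In each of the 6 bulls the observed SD exceeded the counting value. Since the positions were chosen for a small SD in the other bulls, these values are a description and do not divide the spread into sources.

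Because the limit on the SD favoured deep positions, the coverage of members is described without a test. Members had a mean coverage of 26.4 ± 2.97 reads (SD, n = 6 bulls) and the other comparable positions of 17.1 ± 1.12 reads, a difference of 9.23 ± 1.90 reads that was positive in 6 of 6 bulls. By bull, members had a mean of 20.8 reads in H01, 25.4 in H02, 27.6 in H03, 28.7 in L01, 27.1 in L02 and 28.5 in L03. The corresponding means of the other comparable positions were 15.3, 16.3, 17.6, 17.99, 17.4 and 18.2 reads. H01 was the shallowest bull in both sets and had the smallest difference, 5.54 reads.

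Without the limit on the SD the difference was smaller. Positions with a mean of 40% to 60% whatever their SD had 20.1 ± 1.51 reads and the rest 17.2 ± 1.13, a difference of 2.90 ± 0.479 reads in the same direction in 6 of 6 bulls (exact permutation test, two-sided, p = 0.03125, the smallest that 6 bulls allow). Those with an SD of 15 or more had a mean of 12.9 reads in H01 and between 13.8 and 15.2 in the other 5 bulls. This was below the rest in 6 of 6 bulls, which had 15.3 reads in H01 and 16.4 to 18.3 in the other 5. The positive difference of the whole class thus came from its members. Positions with a mean under 20% were as deep as members or deeper, from 22.0 reads in H01 to 33.4 in L03. Positions with a mean over 80% had 11.8 to 14.1 reads. Coverage and consistency cannot be told apart here, because deeper positions pass the limit more easily.

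**Figure D2:**
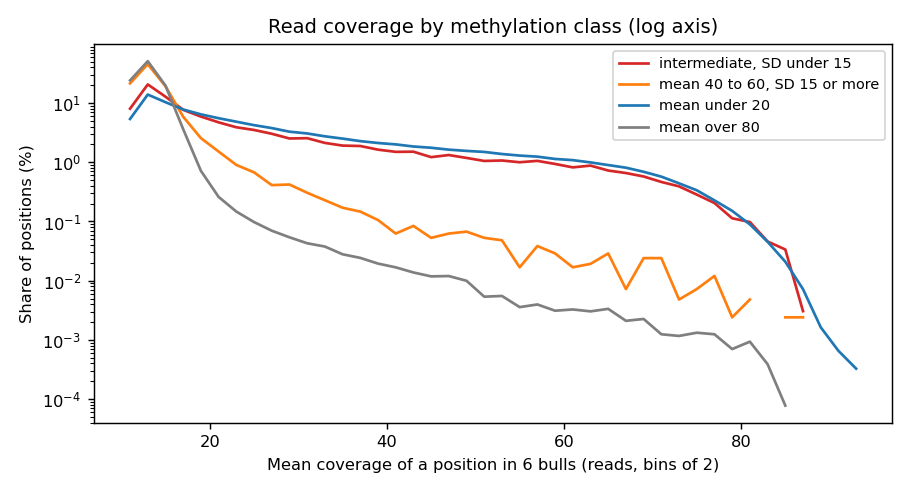
Share of positions, in percent on a log axis, by their mean coverage in the 6 bulls with listed coverage, in bins of 2 reads. Intermediate positions with an SD under 15 (red) and positions with a mean under 20% (blue) reach further to the right than intermediate positions with an SD of 15 or more (orange) and positions with a mean over 80% (gray).

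By mean coverage in these bulls, 11822 members (36.2%) had under 15 reads, 11953 (36.6%) had 15 to under 30, and 8907 (27.3%) had 30 or more. These classes differed in their arrangement. Of members under 15 reads, 73.0% had no other member within 200 bp, whereas 14.1% of those with 30 or more reads did. The median SD between bulls was 13.2 points in the shallowest class and 8.99 in the deepest.

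Members were unevenly placed. Per 1000 comparable positions, chromosome 27 held 40.8 members, chromosome 14 held 33.7 and chromosome 8 held 27.2, while chromosome 23 held 7.91 and chromosome 13 held 9.47. Intermediate positions with an SD of 15 or more did not follow this order on chromosome 27, with 19.4 per 1000, and did on chromosome 14, with 37.3. Of 2529 bins of 1 Mb, 2284 held a member, with a median of 5. The 10 bins with the most members held 7595 of them (23.2%) and 3.90% of the comparable positions. Outside these bins the chromosomes ranged from 7.91 (chromosome 23) to 22.1 (chromosome 6) per 1000, and chromosomes 27, 14 and 8 stood at 13.01, 18.4 and 16.8.

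The first megabase of the chromosomes held 6.90% of the members and 1.79% of the comparable positions. Of these members, 1315 of 2255 lay on chromosome 14. Without that chromosome the shares were 3.11% and 1.25%. In the last megabase the shares were 2.46% and 1.72%.

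The bin with the most members, 2016 of 20193 comparable positions, covered chr27:28000001-29000000 of UMD 3.1. It was followed by chr8:74000001-75000000 with 1462 members, chr14:1-1000000 with 1315, chr5:114000001-115000000 with 675 and chr7:105000001-106000000 with 453. In 4 of these, on chromosomes 27, 8, 5 and 7, the comparable positions were alike: their median level was 12.9%, 13.1%, 14.7% and 12.7%, and 65.9%, 65.3%, 59.8% and 65.8% of them had a mean under 20%. Members there were deep, with 36.0, 36.4, 35.7 and 35.1 reads, and so were the other comparable positions, with 34.5, 35.1, 33.6 and 34.4. The part of this depth in the intermediate levels was not tested.

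The same bulls were at the ends in these 4 bins. Over the members of the chromosome 27 bin, L05 was lowest at 46.1%, the median bull had 48.7% and H06 was highest at 54.1%. On chromosome 8 the values were 46.1% (L05), 48.6% and 54.5% (H06). On chromosome 5 they were 46.8% (L05), 49.6% and 54.7% (H06), and on chromosome 7 44.9% (L05), 48.9% and 54.5% (H06). L06, the lowest bull at the members listed in all bulls, was not the lowest here. The values by bin average the members that each bull listed, so these sets differ. Whether the 4 bins hold separate sequences or copies of a shared one was not tested, so they may not be 4 independent places, and a percent there may average over copies.

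The bin at the start of chromosome 14 behaved differently. Its comparable positions had a median of 23.3%, 46.3% of them had a mean under 20%, and its members had a median SD of 12.3 points against 9.38 to 9.65 in the other 4 bins. The bulls spread further as well, from 37.4% in L06 over a median of 49.98% to 59.7% in H07.

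Distances between members showed recurring values in the 4 alike bins. Between 2 and 400 bp, 25.9% of member pairs on chromosome 27 were 150 to 170 bp apart, 26.4% on chromosome 8, 31.8% on chromosome 5 and 22.7% on chromosome 7. An even spread over these distances would put 5.26% there, and the comparable positions of all autosomes that are not members had 5.14%. Positions of the same 4 bins that are not members were not examined. Whether the distances are particular to members there was therefore not tested. Distances of 50 to 53 bp took 11.1%, 10.5%, 9.77% and 12.5% of the pairs, against 1.0% for an even spread and 1.43% at the other comparable positions. In the chromosome 14 bin the shares were 5.07% and 1.64%. These distance ranges were chosen after their values were seen. Outside the 10 bins, members had 5.97% of their pairs at 150 to 170 bp and 2.87% at 50 to 53 bp. They had peaks at other distances, with 1.59% of their pairs at 325 bp and 1.83% at 329 bp, against 0.184% and 0.175% at the comparable positions that are not members. Over all members, 4880 pairs were 1 bp apart, and from 2 to 400 bp the most frequent distance was 4 bp, with 1794 pairs. Sequence at these places was not analysed here.

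**Figure D3:**
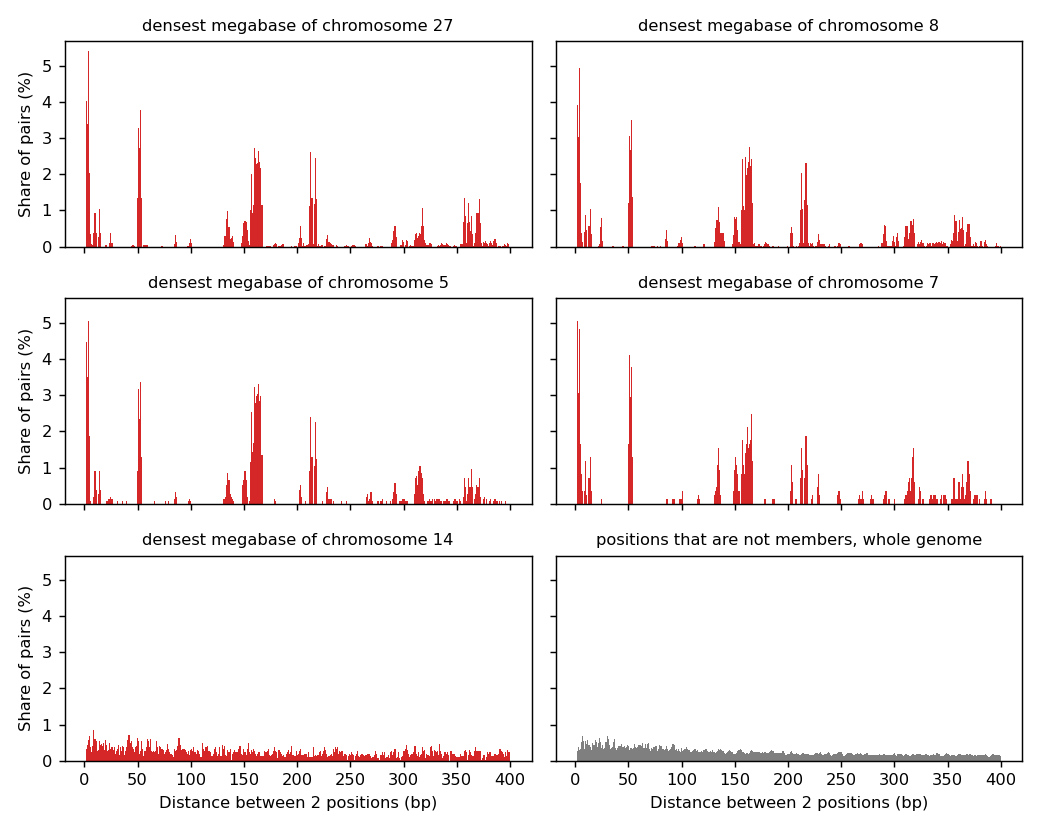
Share of pairs, in percent, by the distance between 2 positions from 2 to 400 bp, for members in 5 of the densest megabases (red) and for comparable positions of all autosomes that are not members (gray). Chromosomes 27, 8, 5 and 7 show the same peaks near 50 and 160 bp, with 22.7% to 31.8% of their pairs at 150 to 170 bp, and chromosome 14 shows 5.07% there.

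The cytosine of the same CpG on the other strand is measured by separate reads. For 26466 members exactly 1 neighbouring position was listed, so that the pair was unambiguous, and for 17431 of these members both cytosines were listed in 6 or more of the same bulls. The partner had a median level of 47.3%, with quartiles of 42.4% and 53.5%. It lay between 40% and 60% for 75.3% of these members, under 20% for 0.476% and over 80% for 1.20%. The median absolute difference between the strands was 3.58 points. Part of this is fixed by the choice, since 4880 pairs of neighbouring positions were both members, and such a pair entered once from each strand. Among the 8903 pairs whose partner was not a member, the partner had a median of 47.1%, with quartiles of 39.2% and 56.4%. It lay between 40% and 60% in 52.9% of them, under 20% in 0.932% and over 80% in 2.36%. Leaving out partners that met the limits lowers the first of these shares by construction. At intermediate positions with an SD of 15 or more, 63.1% of the 7821 partners outside that class lay between 40% and 60%.

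Comparable positions near members had lower methylation than comparable positions elsewhere. The 310599 comparable positions within 1000 bp of a member, members left out, had a mean level of 24.0% ± 1.56 (SD, n = 18 bulls), and the other 1527241 comparable positions had 83.8% ± 1.28. The difference of -59.72 points, with an SD of 0.94, was negative in 18 of 18 bulls (permutation test with 100000 sign flips, two-sided, p = 1e-05, the smallest they can give). Each bull was averaged over those of these positions that it listed, so the positions differed between bulls. Of the comparable positions that are not members, 5.84% were listed in all 18 bulls. Members were chosen by level and SD in these bulls. This test and the flank tests of the next paragraph thus ask only whether a difference recurred between bulls. They cannot tell what the choice itself contributed. Per bull the flanks ranged from 21.2% to 27.3% and the rest from 81.1% to 86.0%, without overlap. Without the 10 densest bins the difference was -59.56 points. Comparable positions are only 4.68% of those listed in any bull. Over all listed positions, members left out, the 2000 bp tiles that held members had a median level of 52.3% to 53.6% in the trait comparisons below. The low level of the flanks thus holds for comparable positions.

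Flanks near members were also set against flanks near intermediate positions with a larger spread. The 226169 positions within 1000 bp of members only had a mean of 21.1% ± 1.41, and the 104386 near intermediate positions with an SD of 15 or more only had 76.4% ± 2.02. The former were lower in 18 of 18 bulls (permutation test, two-sided, p = 1e-05, a comparison chosen after seeing the data). Positions near both kinds were left out, so the values describe places that hold 1 kind only and do not show that the kinds lie apart. Coverage moves with this result: positions with a mean under 20% were among the deeper ones, and the SD limit favoured depth. For members with a mean coverage under 15 reads, the flanks had a mean of 55.6% ± 2.77, lower than the rest of the comparable positions by 28.1 points and in 18 of 18 bulls (permutation test, two-sided, p = 1e-05, also chosen after seeing the data).

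These means weight each flanking position equally. Averaged by member, the neighbours that are not members had 34.2% at 200 to 499 bp, 34.6% at 500 to 999 bp and 38.7% at 1000 to 1999 bp. Of all members, 25522 had a comparable position on both sides within 1000 bp. Both sides had a mean under 30% for 50.1% of them, both over 70% for 8.83%, both from 30% to 70% for 19.7%, and one under 30% with the other over 70% for 3.11%. The last class is where an edge between a methylated and an unmethylated stretch would fall. Shares by class are likewise of the positions with a comparable position on both sides. Among 8602 such members with 30 or more reads, 73.9% had both sides under 30% and 0.442% had one side low and one high. Among the 6367 such members under 15 reads, out of 11822, the shares were 15.03% and 8.47%, and 21.2% had both sides over 70%. Of 21454 such intermediate positions with an SD of 15 or more, out of 41577, 44.8% had both sides over 70% and 6.89% both under 30%. Outside the 10 densest bins 43.4% of 18128 such members, out of 25087, had both sides under 30%.

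In the deep class, neighbours that are not members had a lower level than members at each distance from 2 bp on, without a steady course. In the shallow class their level stayed near that of members up to 99 bp. This contrast is partly fixed by the choice. A deep neighbour of intermediate level meets the SD limit more easily, and is then a member and left out. The part of this in the contrast between coverage classes was not tested. Averaged over members with 30 or more reads, neighbouring positions that are not members had 45.2% at 1 bp, which is the other strand of the CpG, 26.3% at 2 to 9 bp, 30.6% at 10 to 24 bp, 17.3% at 25 to 49 bp, 23.0% at 100 to 199 bp, 21.3% at 500 to 999 bp and 26.8% at 5000 to 9999 bp. For members under 15 reads the corresponding values were 48.8%, 49.3%, 50.2%, 48.6%, 52.6%, 58.2% and 71.9%. Which members had a listed neighbour differed between distances, and of the 6367 shallow members with a comparable position on both sides 25.7% had both from 30% to 70%.

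**Figure D4:**
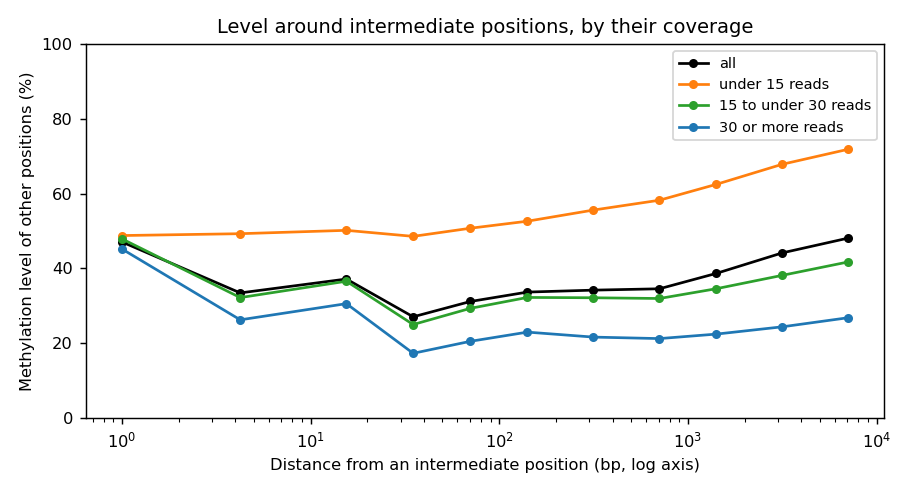
Mean methylation level in percent of comparable positions that are not members, by distance in base pairs (log axis) from an intermediate position, averaged over members and split by the mean coverage of the member. Around members with 30 or more reads (blue) the level is 17.3% at 25 to 49 bp, and around those under 15 reads (orange) it is 48.6%. Leaving out members removes intermediate neighbours more easily where they are deep.

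Members joined by gaps of at most 200 bp formed 19451 clusters. Of these 13383 were single members (40.9% of all members), 5181 held 2 to 4, 887 held 5 or more and 131 held 10 or more. The clusters of 5 or more held 6446 members (19.7%). In the 784 of them for which each bull listed at least 1 member, the cluster mean had a median SD between bulls of 6.24 points, and their single members had a median SD of 10.5.

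The largest cluster, chr14:11406385-11407399, held 55 members among 99 comparable positions, 57 of which had a mean of 40% to 60%. Its comparable positions had a mean of 50.4% with an SD of 13.1 over positions, whereas the 276 comparable positions within 5000 bp on both sides had a mean of 80.5%. It was thus an intermediate stretch of 1015 bp inside methylated surroundings. Its members were covered by 30.1 reads and listed in 17 or 18 bulls. The mean over its members was lowest in H05 (34.9%), followed by L02 (40.3%) and then L05 and L06 (both 40.6%). Its median over bulls was 47.6%, and the highest values were found in H02 (56.8%), L07 (56.9%) and H06 (57.4%).

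The second cluster, chr24:12813983-12815272, held 33 members and lay in surroundings of 39.6%, so the intermediate level reached beyond its ends. H08 (28.4%) and H09 (33.5%) were the lowest bulls, the median was 46.7% and L02 was the highest at 60.6%. A pair of clusters near the end of chromosome 11, chr11:107288016-107288913 with 32 and chr11:107289214-107289811 with 25 members, lay next to each other. The first ranged over bulls from 34.7% (H01) to 67.3% (H06) and the second from 32.2% (L05) to 68.5% (L08).

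The start of chromosome 14 held 2 more of the 10 largest clusters, just beyond its first megabase. These were chr14:1078085-1079202 and chr14:1009782-1010691, with 25 and 23 members. L06 was the lowest bull in both, with 35.6% and 33.7%. The other large clusters were chr20:15037267-15037745 and chr21:2070762-2071619 with 23 members each, chr18:51103976-51104818 with 22 and chr24:56946726-56947310 with 21. L03 listed no member of the cluster at chr24:56946726-56947310. L06 was also the lowest bull on chromosome 20 (40.6%, up to 58.3% in L02) and on chromosome 21 (38.4%, up to 59.7% in H07).

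Under 20 reads of mean coverage, the cluster with the most members was the one on chromosome 18, with 16.4 reads, 40.3% in H02 and 64.4% in H04. The next 4 held 11 members each. Of these, chr8:71113677-71113825 spanned only 149 bp and ranged from 24.5% (L06) to 56.9% (L01), with H09 listing none of its members. The others were chr27:5328673-5329071, from 44.3% (H03) to 67.0% (L02), chr14:514278-514786, from 27.4% (L06) to 63.8% (L07) with no member listed in H01, and chr1:66285-66868, from 39.4% (L06) to 70.2% (H03).

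The spread between bulls over a cluster is set beside a counting error as a description. In the 6 bulls with listed coverage, the mean over the 55 members of the largest cluster had an SD between bulls of 5.79 points, against 1.31 from counting error with independent positions. For the second cluster the values were 6.45 and 1.71, for the pair on chromosome 11 9.52 and 2.15 and then 8.77 and 2.15. Neighbouring CpGs share reads, so the counting value is too small by an amount not measured here and the excess cannot be assigned to bulls. Moreover, bulls that did not list all members of a cluster were averaged over those they listed.

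Few members touched genes that the study had fine-mapped for gestation length. Using coordinates on the same build, 3 of 25 such genes held a member within 2000 bp, with 4 members among 1247 comparable positions (0.321%, against 1.75% over the autosomes). Of the 25 genes, 4 (DGAT1, BOP1, FBXL6 and SLC52A2) had no comparable position and 4 more had 5 or fewer, so they could hold few members or none. NRG2, a neuregulin family growth factor gene, had 2 within its body, at chr7:52836942 and chr7:52866558, with a mean level of 53.8%. ZNF16, a zinc finger gene, had 1 at chr14:1460405 (45.9%), and SCRT1, a gene of a zinc finger repressor, had 1 at chr14:1782134 (57.3%). Both of the latter lay outside the gene body. Other genes, imprinted genes included, were not analysed here.

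The trait groups were compared at flanking positions, since the choice itself limits how far members can differ. At comparable positions within 1000 bp of a member that were listed in each bull of a comparison, bulls of the 2 groups were exchanged in every possible way (an exact, two-sided permutation test), and p was adjusted over the 5 traits by Benjamini-Hochberg. The smallest p is 0.0286 with 4 bulls against 4 and 0.10 with 3 against 3, so no trait could reach an adjusted p under 0.05 and the tests say nothing on whether groups differ. For GL, the 4 high bulls had 18.3% (H03), 20.01% (H09), 21.2% (L03) and 17.7% (L05) and the 4 low bulls had 18.995% (H02), 17.9% (H05), 20.2% (L01) and 18.5% (L07). The groups overlapped, with a difference of 0.39 points (exact permutation test, p = 0.714, adjusted p = 0.714). Without L03 the difference was -0.22 points.

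For SCE, the 3 high bulls had 18.3% to 20.4% and the 3 low bulls 19.3% to 22.4%, a difference of -1.19 points (exact permutation test, p = 0.50, adjusted p = 0.625). For BDE, high bulls had 20.3% to 22.6% and low bulls 19.1% to 21.2%, a difference of 1.09 points (exact permutation test, p = 0.40, adjusted p = 0.625). Both pairs of groups overlapped. Without H06 the SCE difference was -0.25 points, and without H05 the BDE difference was 0.49 points.

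For CCR, the high bulls H08, H09 and L06 had 22.9%, 23.3% and 19.5% and the low bulls H06, L08 and L09 had 26.0%, 23.8% and 23.3%. The difference was -2.45 points (exact permutation test, p = 0.20, adjusted p = 0.50). It was -1.26 without L06, the bull with the lowest mean at members listed in all bulls. The ranges of the groups overlapped slightly. For SCR, the high bulls H01, H02 and H03 had 19.2%, 18.9% and 18.1% and the low bulls L01, L02 and L03 had 20.1%, 19.3% and 21.1%. These groups did not overlap and differed by -1.42 points (exact permutation test, p = 0.10, the smallest possible, adjusted p = 0.50).

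**Figure D5:**
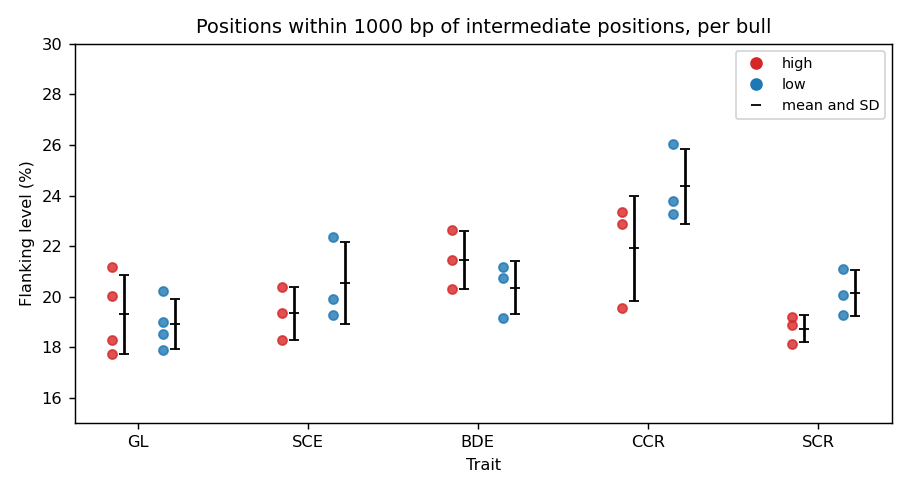
Mean methylation level in percent of the positions within 1000 bp of intermediate positions, members left out, for each high (red) and low (blue) bull of 5 traits, with mean and SD in black; the axis runs from 15% to 30%. Groups overlap for GL, SCE and BDE, and the SCR groups do not.

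The deposited values came in 2 forms, with and without coverage, which can mark separate processing. Within the bulls with coverage the flank difference was 0.11 points for GL, -0.48 for SCE and 0.71 for BDE, and within those without it was 0.67, -0.76 and 1.27, with 1 or 2 bulls a group and no test. All CCR bulls lacked coverage and all SCR bulls had it.

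The members themselves gave differences that are described without a test. Over members listed in each bull of a comparison, the high bulls differed from the low bulls by 1.14 points for GL (14358 members), -1.44 for SCE (12630), 3.53 for BDE (13543), -4.47 for CCR (12007) and -2.38 for SCR (13644). At the other comparable positions the same differences were 0.40, -0.75, 0.86, -1.66 and -1.08 points, in the same direction for each trait. Differences over 10 points were found at 16.8% (GL), 28.1% (SCE), 32.1% (BDE), 32.7% (CCR) and 24.6% (SCR) of members, and at 6.17%, 10.6%, 10.7%, 12.2% and 9.50% of the other comparable positions. The levels of these other positions were mostly over 80% or under 20%. In CCR 68.9% of members and 58.4% of the others were lower in the high bulls, and in BDE 62.8% and 53.1% were higher. Means of the bulls over members overlapped between the groups for GL, SCE and CCR. They lay narrowly apart for BDE (high from 48.32%, low up to 48.29%) and SCR (high up to 47.99%, low from 48.14%). L06, the lowest bull at members listed in all bulls, was a high-CCR bull. L03, the highest, was a high-GL, high-BDE and low-SCR bull.

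Members fell in 15341 tiles of 2000 bp, which were tested by logistic regression on trait group, with members left out of the summed methylated and unmethylated reads. A call needed a q under 0.01 and a difference over 5 points. For GL, 1764 of 13348 tested member tiles were called, or 13.2%, beside 8.74% of all 587758 tested tiles. For SCE, 1106 of 12177 (9.08%) were called beside 6.17% of all tiles. For BDE, 1636 of 12937 (12.6%) were called beside 7.58% of all tiles. For CCR, 2468 of 12964 (19.04%) were called beside 11.0% of all tiles. Without H08 the CCR count was 3809. For SCR, 1687 of 12287 (13.7%) were called beside 8.61% of all tiles. SCR used listed counts, and with 10 reads per position, as for the other 4 traits, it gave 1091 member tiles. With positions of 15 or more reads it gave 597, so counts are not comparable between SCR and the other traits.

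The direction of the calls is given beside that over all tiles. Of called member tiles, 59.1% were higher in the high bulls for GL, 43.9% for SCE, 71.4% for BDE, 13.01% for CCR and 35.6% for SCR. Of all called tiles the shares were 57.0%, 42.6%, 62.2%, 23.2% and 48.0%.

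Member tiles were called more often than tiles in general in each trait, and they also held more data. For GL, SCE, BDE and CCR each listed position of a bull entered as 10 reads, since depth is unknown for 12 bulls, so the sums follow the number of listed positions. These nominal sums had a median of 1220, 750, 760 and 1000 per member tile, against 890, 480, 530 and 770 over all tested tiles. For SCR, the sole trait with listed counts, the medians were 1078 and 582 reads. The median level of member tiles was 52.3% to 53.6%. The part of the number of positions or reads and of the level in the higher share was not tested. The logistic test takes reads as independent and does not estimate how bulls of a group vary. limma, which does, called 0 member tiles and 0% of all tiles for each trait. At an unadjusted limma p under 0.05 there were 398 member tiles for GL, 257 for SCE, 373 for BDE, 451 for CCR and 225 for SCR, or 1.83% to 3.48% of those tested, below the 3.81% to 4.90% of all tiles. When only comparable positions entered the sums, fewer tiles could be tested and a smaller share was called. For GL, 132 of 9612 member tiles (1.37%) were called beside 0.765% of all tested tiles. For SCE, 153 of 8776 (1.74%) were called beside 0.890%, and for BDE 387 of 9360 (4.13%) beside 1.29%. For CCR, 437 of 9666 (4.52%) were called beside 1.30%, and for SCR 490 of 8882 (5.52%) beside 2.45%. Of these member tiles, 92 were higher and 40 lower in the high bulls for GL, 76 and 77 for SCE and 336 and 51 for BDE. For CCR 11 were higher and 426 lower, and for SCR 134 and 356. Over all tiles called in this setting, 751 of 1273 (GL), 588 of 1182 (SCE), 1361 of 2081 (BDE), 419 of 2276 (CCR) and 1489 of 3421 (SCR) were higher.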

How the data were processed

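The authors trimmed the reads (Trim Galore 0.4.0, FastQC 0.11.2 per the submitters' processing notes), mapped them to UMD 3.1 with Bowtie 2 and extracted methylation with Bismark 0.14.5. The deposited value is the methylated percent per CpG cytosine with a minimum of 10 reads, strands kept apart. The deposited read count per position exists for 6 bulls, and percent times count gave whole methylated reads at 100% of positions (tolerance 0.01 reads). The depth of the other 12 bulls is unknown, and no read intervals are given for any bull.

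The members, clusters and lists were chosen with earlier results of these data known. Named clusters are the 10 with the most members and the 5 with the most members under 20 reads of mean coverage. SD is the sample SD. Tile tests pooled reads of a group. Positions counted as 10 reads for GL, SCE, BDE and CCR, since the planned counts were not given for all bulls, and as listed counts for SCR. The q values used a simplified SLIM estimate (median slope of the p-value distribution over 10 segments from 0.1 to 1). limma 3.58.1 (R 4.3.3) was run on log2 of methylated over unmethylated reads, 1 read added to both, computed from the deposited percent. Python 3.11.15, NumPy 2.4.6 and SciPy 1.17.1 were used, and the tests were run on simulated data. The simulated reads of the tile test had no variation between bulls of a group beyond counting error. That run therefore cannot show how the tile test behaves where bulls vary more. PCR copies cannot be told apart from independent molecules. Coordinates of the 25 fine-mapped genes were taken from the study's supplementary gene list. No genome sequence or other annotation of the build was used, so sequence context, imprinted genes and germ cell genes were not analysed here.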

Additional observations from a re-analysis of the deposited data

Results flagged for a closer look

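In the high and low GL groups of 4 bulls, and for coverage in 6 bulls, 33 sets of values were examined for a bull far from the others. Of these, 3 stood out. Groups of the other traits were not examined in this way. In sets of independent values chance flags about 1 in 20. The 3 rest on levels or coverage of members, which were chosen for a small SD between bulls, so that rate need not hold and the values are given as a description. At the cluster chr24:12813983-12815272, H09 had 33.5% among the high-GL bulls, whose other 3 values lay between 49.0% and 49.6%. At the cluster chr11:107289214-107289811, L05 had 32.2% among the high-GL bulls, and the other 3 lay between 55.9% and 58.4%. The coverage of members exceeded that of other comparable positions by 5.54 reads in H01 and by 9.05 to 10.7 reads in the other 5 bulls.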

How the results depend on the processing

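The number of intermediate positions was 8987 with an SD under 10 points, 15831 with a mean from 45% to 55%, 18807 when listed in 15 or more bulls, and 27408 to 30887 with 1 bull left out. The coverage difference was 5.83 reads by medians and 8.93 to 9.97 reads with 1 bull left out. The flank difference kept its direction in each alternative, from -59.82 to -28.14 points. Of the trait flank differences, only GL changed sign, ranging from -0.22 (without L03) to 0.92 points with 1 bull left out. The other 4 kept their sign, with -1.77 to -0.25 for SCE (-0.25 without H06), 0.49 (without H05) to 1.67 for BDE, -3.23 to -1.26 for CCR and -1.87 to -0.95 for SCR. Called member tiles fell to 132 (GL), 153 (SCE), 387 (BDE), 437 (CCR) and 490 (SCR) with comparable positions only, where the share over all tested tiles was also lower (0.765% against 8.74% for GL) and fewer member tiles were tested (9612 against 13348 for GL), and to 0 by limma. With 13 reads per position, chosen after seeing the data, SCE gave 1662. SCR gave 597 with positions of 15 or more reads and 1091 with 10 reads per position. With 1 bull left out, CCR ranged from 1774 to 3809. The causes of these changes were not tested. Of 157 alternative values, 133 kept direction and side of the threshold or stayed within 1.5 times the count. This tally was partly fixed by the design. For SCE, BDE, CCR and SCR no flank p under 0.05 was possible, so only a change of sign could count. With 1 bull left out the coverage difference could not reach a p under 0.05 either, which fixed 6 of the other values. No paired analysis was possible because the labels give no replicate numbers that link bulls of different groups. Depth is unknown for 12 bulls, which limits statements on counting error to 6.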

Other observations

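The 2 bulls without a trait group differed from each other at the intermediate positions listed in all bulls. H04 had a mean of 51.6% and L04 of 46.2%, both inside the range of the other bulls. H04 was the highest bull at the cluster chr18:51103976-51104818 (64.4%), where L04 had 48.6%. At the cluster chr24:12813983-12815272 they had 50.4% and 42.7%.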
